A study of Homo sapiens with 32 samples.

Results

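KIT, ABL2, CSF1R, DDR1 and DDR2 encode kinases that bind imatinib or nilotinib, and their RNA levels were followed in drug-naive and drug-resistant K-562 cells. They were picked by gene symbol, and they are 5 of the 14884 genes that the arrays measured under 1 symbol. KIT, CSF1R and DDR2 had 1 array feature each, ABL2 had 2 and DDR1 had 4, which gives 9 features. Features 2 and 3 of DDR1 held identical values, so 8 features were distinct. K-562 is an established line from a patient with chronic myeloid leukaemia, and its growth is driven by the fusion of BCR with an ABL kinase, the target for which both drugs were made.

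The 32 GeneChip arrays form 8 sets of 4, and all of them hold total RNA of K-562. Naive S and naive K are 2 sets of cells that had never been selected with a drug, and the labels leave the letters S and K unexplained. The low-imatinib lines 1 and 2 had been brought to growth in 0.5 µM imatinib, the high-imatinib lines 1 and 2 to 2 µM imatinib, and the nilotinib lines 1 and 2 to 0.1 µM nilotinib, each by stepwise increases. Lines 1 and 2 are the biological replicates and the 4 arrays of a set are technical replicates. The growth text names medium without either drug for every sample, so the presence of drug at harvest is unclear from the labels. No label says that the naive sets came from separate cultures, so p-values between naive and resistant sets measure the spread between these sets. Levels are given as log2 intensity, where a difference of 1 is a doubling, and levels of different genes are not set against each other.

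Imatinib and nilotinib hold a kinase in an inactive shape by filling the pocket for ATP, and a small number of kinases besides ABL share the pocket. KIT is the receptor of stem cell factor and sits on blood stem cells, progenitors and mast cells, where it signals to RAS, PI3 kinase and STAT5. CSF1R is its close relative on monocytes and macrophages, and DDR1 and DDR2 are receptors for collagen. ABL2 is the paralogue of ABL and binds actin.

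KIT was high in naive cells and in 1 nilotinib line and low in 4 of the 6 resistant lines. The naive S arrays read 8.73, 8.17, 8.48 and 8.37 (mean 8.44 ± 0.23, SD over 4 arrays). The naive K arrays read 8.45, 8.95, 9.35 and 8.72 (mean 8.87 ± 0.38). The naive sets overlapped and differed by -0.43 ± 0.17 (S minus K, SE; adjusted p = 0.102 by limma with Benjamini-Hochberg adjustment over all genes), a difference that passed under quantile normalization (-0.50, adjusted p = 0.0240) and without array 1 of every set (-0.67, adjusted p = 0.0481). Low-imatinib line 1 gave 5.42, 5.79, 5.23 and 5.95 (mean 5.60 ± 0.33). Low-imatinib line 2 gave 5.34, 5.63, 5.59 and 5.48 (mean 5.51 ± 0.13). Every low-imatinib array lay below every naive array, and the line means were 8.31-fold and 8.83-fold under the naive mean. High-imatinib line 1 stood at 7.49, 7.61, 7.39 and 7.67 (mean 7.54 ± 0.13). High-imatinib line 2 stood at 5.39, 5.86, 5.12 and 5.14 (mean 5.38 ± 0.34). Of the high-imatinib lines, only line 2 overlapped the low-imatinib lines, and line 1 lay between them and the naive sets, 2.16-fold under the naive mean. Nilotinib line 1 read 9.23, 9.31, 9.22 and 9.21 (mean 9.24 ± 0.05). Nilotinib line 2 read 4.67, 4.88, 5.22 and 5.42 (mean 5.05 ± 0.34). These were the highest and the lowest of the 8 set means, so 1 resistance spanned the whole range of KIT means. The means of the 4 low lines (5.05 to 5.60) lay below the array medians (5.85 to 6.11). Whether KIT reads above background in these lines was not tested. Their order and the folds that involve them are therefore differences in intensity. In bulk RNA, fewer cells that carry KIT and less KIT RNA per cell cannot be told apart.

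**Figure D1:**
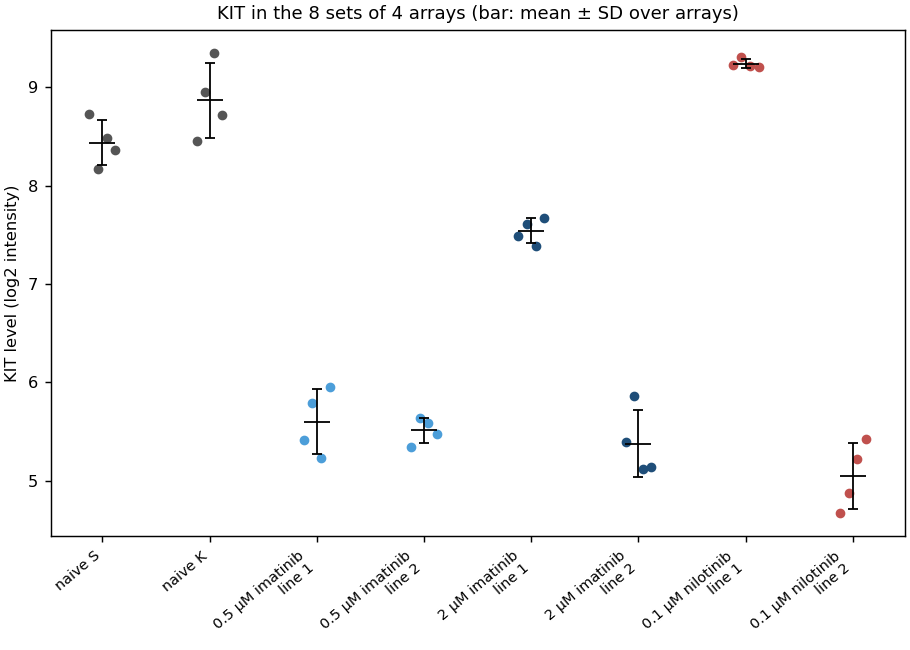
KIT level (log2 intensity, vertical axis) in the 8 sets, with 1 point per array, a line at the set mean and bars of 1 SD over 4 arrays. Both naive sets and nilotinib line 1 sit above 8, high-imatinib line 1 sits near 7.54, and the other 4 resistant lines sit below 6.

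The order of the KIT means from low to high was nilotinib line 2, high-imatinib line 2, low-imatinib line 2, low-imatinib line 1, high-imatinib line 1, naive S, naive K and nilotinib line 1. Of the 7 neighbouring pairs in that order, 2 had arrays that did not overlap, and both pairs hold high-imatinib line 1. The arrays of high-imatinib line 1 thus overlapped those of no neighbour, with 4 lines below it and 3 sets above it. The upper 3 sets did not share 1 level, since naive S (8.17 to 8.73) and nilotinib line 1 (9.21 to 9.31) did not overlap. The range of its set means was 4.19 on the log2 scale, or 18.3-fold. That range ranked 29 among 14884 genes, with 0.188% of genes ranging wider and a median of 0.66 over all genes. The main direction of technical variation between arrays of the same set (the technical axis) scored -20.8 and -25.1 in the naive sets and from -2.13 to 21.2 in the resistant lines. With that axis taken out of the arrays, the range of KIT was 4.18.

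The 5 genes whose set means followed those of KIT most closely were CD24, AHR, PIM1, GAB2 and EPB41L3. Likeness was the root mean square difference over the 8 set means after each gene was centred on its own mean. It was 0.55 for CD24, 0.74 for AHR, 0.75 for PIM1, 0.86 for GAB2 and 0.91 for EPB41L3, against a median of 1.65 over all genes. A gene with the same level in every set would give 1.64, so that median reflects the range of KIT itself. CD24, a small glycoprotein anchored to the cell surface, stood at 9.64 (naive S) and 9.73 (naive K), at 5.70 and 5.98 for low imatinib (line 1, then line 2), at 8.68 and 5.95 for high imatinib and at 10.53 and 7.03 for nilotinib. CD24 thus had the same high, middle and low sets as KIT, with nilotinib line 2 less far down. AHR, a transcription factor activated by ligands, was at 10.34 and 9.57 for naive cells, 6.03 and 5.41 for low imatinib, 7.40 and 5.56 for high imatinib, and 10.69 and 6.63 for nilotinib. PIM1, a kinase induced by STAT5, was at 10.59 and 10.35, 8.32 and 7.51, 8.27 and 7.97, and 9.77 and 6.81 in the same order. PIM1 had no middle level in high-imatinib line 1, which lay beside low-imatinib line 1. GAB2, an adaptor that binds GRB2 and acts behind KIT, ranged by 2.20, less than KIT, between 7.24 in nilotinib line 1 and 5.05 in nilotinib line 2. EPB41L3, a membrane protein of the 4.1 family, was low in both high-imatinib lines, at 5.93 and 6.03. The same 5 genes came out after quantile normalization, while Pearson correlation put GAB2, CLIP3, CHEK2P2, CD24 and SNHG18 nearest. By that correlation AHR ranked 6, PIM1 25 and EPB41L3 77. The 5 genes were picked for their likeness, so no test applies to it.

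**Figure D2:**
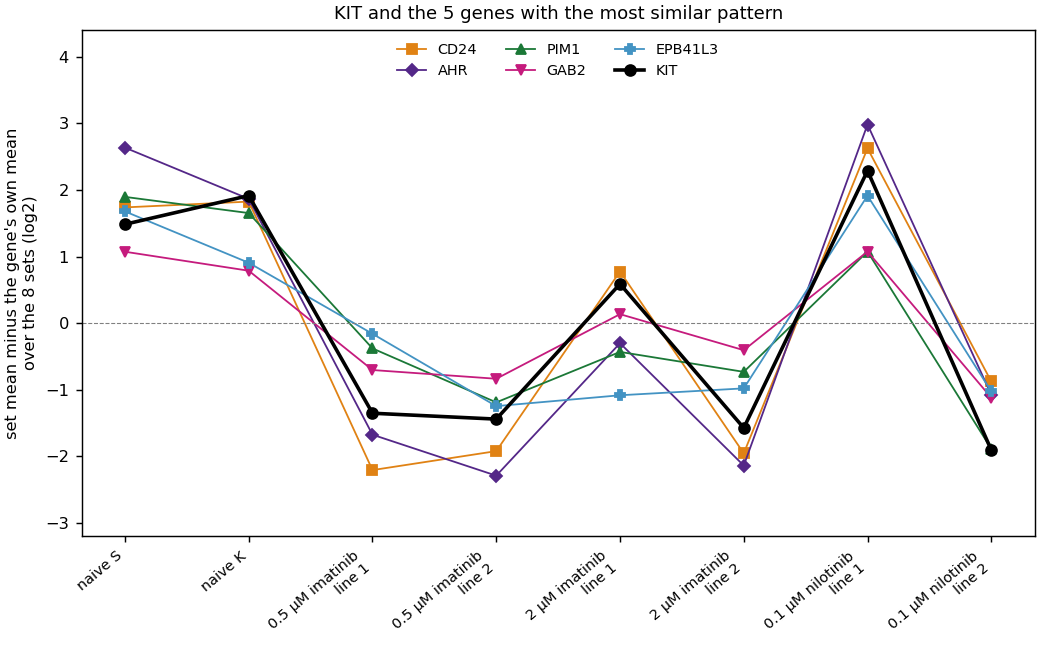
Set mean minus the gene's own mean over the 8 sets (log2, vertical axis) for KIT in black and for the 5 most alike genes in colour. The lines join sets only to guide the eye, and all 6 genes stand above 0 in both naive sets and nilotinib line 1 and below 0 in the low-imatinib lines, high-imatinib line 2 and nilotinib line 2.

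The promoters of KIT, AHR and PIM1 are shown because these genes moved together over the sets and have 1 annotated start each. Each run covers 250 bases before the start to 50 bases after it, 300 in all, from RefSeq on GRCh38.p14. KIT lies on the plus strand at chr4:54657707-54658006, AHR on the plus strand at chr7:17298402-17298701 and PIM1 on the plus strand at chr6:37169902-37170201. Capitals mark matches on either strand to GATAA (the core of GATA factor sites), CANNTG (the E-box), GGGCGG (the GC box) and CCAAT.
KIT: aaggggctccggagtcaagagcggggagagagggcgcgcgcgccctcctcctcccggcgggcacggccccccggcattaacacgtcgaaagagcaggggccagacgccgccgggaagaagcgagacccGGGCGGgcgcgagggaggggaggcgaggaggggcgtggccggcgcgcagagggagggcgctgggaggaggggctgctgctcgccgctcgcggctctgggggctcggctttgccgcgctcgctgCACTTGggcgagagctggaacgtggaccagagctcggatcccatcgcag
AHR: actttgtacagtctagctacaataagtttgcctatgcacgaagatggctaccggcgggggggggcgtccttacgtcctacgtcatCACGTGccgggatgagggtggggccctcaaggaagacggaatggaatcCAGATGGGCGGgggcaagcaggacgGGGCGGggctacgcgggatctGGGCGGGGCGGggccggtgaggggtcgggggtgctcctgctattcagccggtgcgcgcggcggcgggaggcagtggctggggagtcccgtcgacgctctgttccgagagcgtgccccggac
PIM1: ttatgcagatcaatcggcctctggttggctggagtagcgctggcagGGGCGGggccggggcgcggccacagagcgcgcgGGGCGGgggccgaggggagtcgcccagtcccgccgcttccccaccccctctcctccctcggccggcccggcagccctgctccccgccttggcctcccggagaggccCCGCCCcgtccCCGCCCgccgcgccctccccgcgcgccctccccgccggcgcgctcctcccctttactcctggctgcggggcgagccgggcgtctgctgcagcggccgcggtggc
KIT held 1 E-box and 1 GC box, AHR 2 E-boxes and 4 GC boxes, and PIM1 4 GC boxes. In AHR, 1 E-box and 1 GC box share bases, as do 2 of its GC boxes. GATAA and CCAAT had no match in these 3 windows. Over all 35116 promoters of the same length, 22.7% held GATAA, 68.7% CANNTG, 45.0% GGGCGG and 34.6% CCAAT. The GC content was 74.3% in KIT, 67.3% in AHR and 79.7% in PIM1, where the median promoter had 58.7% and 10.3% of promoters exceeded KIT. A match is a run of letters and no evidence of binding.

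KIT did not pass the test against naive cells in any resistance, although its level was below both naive sets in 5 of the 6 resistant lines. In low-imatinib against naive cells the difference was -3.10 ± 1.28 (SE, n = 2 lines against 2 sets, 95% CI -6.12 to -0.08), or 8.56-fold lower, with adjusted p = 0.223 by limma. Its unadjusted p was 0.0456, and 0% of the 14884 genes passed in that comparison (0 genes, with 3215 at an unadjusted p under 0.05 and 2672 called by a limma fit to 32 arrays with the set as a random block). The SE pools the spread of all 4 groups, in which the nilotinib and high-imatinib lines differ widely for KIT. With only the low-imatinib and naive groups in the fit, KIT passed at adjusted p = 1.84e-04 with the same difference, and with the random block at 3.70e-04. Over all alternatives its adjusted p ran from 1.84e-04 to 0.514. High-imatinib minus naive was -2.19 ± 1.28 (adjusted p = 0.441, in limma). There 0% of genes passed (0 genes, 2266 at an unadjusted p under 0.05, and 1679 with the random block, KIT among them at adjusted p = 0.0143). Nilotinib minus naive was -1.51 ± 1.28 (95% CI -4.53 to 1.51, adjusted p = 0.416), where 0.443% of genes passed. That mean describes neither line: without line 1 it was -3.61, and without line 2 it was 0.59. Over all 6 resistant lines KIT stood at -2.27 ± 1.04 (adjusted p = 0.192, or 8.61e-04 with the random block), where 3.72% of genes passed. The random block assumes 1 correlation between arrays of a set, 0.435, for all genes. The KIT levels of the 2 nilotinib lines, and of the 2 high-imatinib lines, differed far more than arrays of a set did. The block fit can therefore count arrays in part as replicates, and its p-values for KIT can be too small.

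Between resistances, KIT differed by 0.90 ± 1.28 for high against low imatinib (adjusted p = 0.961 by limma), 1.59 ± 1.28 for nilotinib against low imatinib (adjusted p = 0.813) and 0.68 ± 1.28 for nilotinib against high imatinib (adjusted p = 0.882). The 95% intervals of -2.11 to 3.92, -1.43 to 4.61 and -2.33 to 3.70 leave room for large differences either way. In these comparisons 0%, 0% and 0% of genes passed, with 722, 1028 and 943 genes at an unadjusted p under 0.05 and 413, 550 and 201 called with the random block. All 3 differences turned negative when 1 of the 2 lines of a resistance was left out with its 4 arrays. High minus low was -0.18 without high-imatinib line 1, and the nilotinib comparisons were -0.51 and -1.41 without nilotinib line 1. Without high-imatinib line 2, nilotinib minus high was -0.40.

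Lines of the same resistance differed in KIT far beyond the technical spread in 2 of 3 cases. These tests set 4 arrays against 4 and say nothing of the spread between cultures. Nilotinib line 1 exceeded line 2 by 4.19 ± 0.17 (95% CI 3.84 to 4.55), or 18.3-fold (adjusted p = 1.65e-19 by limma). High-imatinib line 1 exceeded line 2 by 2.16 ± 0.17 (95% CI 1.81 to 2.52), or 4.48-fold (adjusted p = 4.06e-12). The low-imatinib lines differed by 0.09 ± 0.17 (95% CI -0.27 to 0.44, adjusted p = 0.794). Such calls were common, at 27.6% of genes between the nilotinib lines, 33% between the high-imatinib lines and 18.7% between the low-imatinib lines. Over all alternatives the KIT difference stayed between 3.97 and 4.33 for the nilotinib lines and between 2.04 and 2.30 for the high-imatinib lines.

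**Figure D3:**
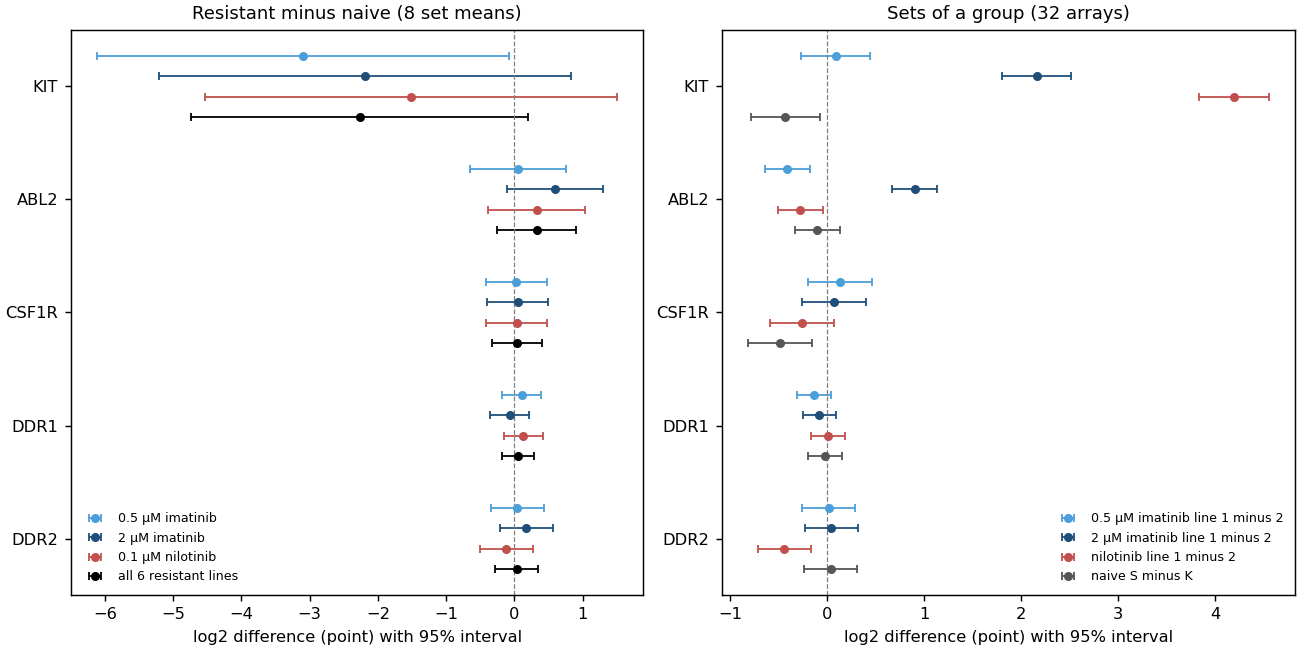
Differences of the 5 kinase genes (log2, horizontal axis) with 95% intervals from limma. The left panel shows resistant minus naive from the 8 set means, where no interval led to a call, and the right panel shows sets of the same group from 32 arrays, where KIT stands apart in the high-imatinib and nilotinib lines.

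Some markers of blood lineages differed between these lines too, in directions that were not the same in both pairs, and their part in the result was not tested. In high-imatinib line 1, 6 of 12 monocyte and macrophage genes were higher than in line 2 and 0 were lower, where 13.2% of all genes were higher and 19.8% lower. The 6 were VSIG4 (3.78 ± 0.10), TYROBP (3.65 ± 0.14), CD68 (2.63 ± 0.10), SPI1 (1.48 ± 0.13), LYZ (1.29 ± 0.13) and CSF3R (0.95 ± 0.11). The mean level of the list was 7.11 in line 1 and 5.95 in line 2, against 5.82 to 6.70 in the other 6 sets. In the same pair, 8 of 11 erythroid genes were lower in line 1 and 0 were higher, with FECH, the last enzyme of haem synthesis, at -2.47 ± 0.11 and RHAG at -1.75 ± 0.09. The erythroid list had a mean level of 7.59 in line 1 and 8.40 in line 2. Between the nilotinib lines, where KIT differed most, 3 erythroid genes were higher in line 1 and 3 lower, with EPB42 at 0.84 ± 0.12 and AHSP at -0.63 ± 0.11. Between the low-imatinib lines, where KIT differed by 0.09, 1 was higher and 5 were lower, beside 9.96% and 8.77% of all genes. Against naive cells 2 of 11 erythroid genes passed in all resistant lines (3.72% of all genes), TAL1 and UROD, an enzyme of haem synthesis that was higher by 0.92 ± 0.18. Between the nilotinib lines the monocyte genes ran the other way: 1 of 12 was higher in line 1, where KIT was high, and 5 were lower, with TYROBP at -3.37 ± 0.14. The list mean was 6.03 in line 1 and 6.70 in line 2, and over all genes 16.1% were higher and 11.5% lower. Between the low-imatinib lines 3 monocyte genes were higher in line 1 and 2 lower. Of 12 mast cell and basophil genes other than KIT, 2 were higher and 1 lower in high-imatinib line 1, and 3 were higher and 1 lower in nilotinib line 1. SIGLEC6, a receptor of mast cells and placenta, was higher in line 1 in both pairs, by 3.02 ± 0.13 and 0.52 ± 0.13. HDC, which makes histamine, was lower in high-imatinib line 1 (-0.47 ± 0.12) and higher in nilotinib line 1 (0.38 ± 0.12). The list mean of the mast cell genes ran from 5.71 to 6.09 over the 8 sets, and the arrays have no value at 0 and no detection call by which a marker could be called absent.

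GATA1, the erythroid master factor that K-562 is known to carry, was at 9.12 to 9.71 in every set. GATA1 differed by -0.02 ± 0.09 between the high-imatinib lines, where KIT differed by 2.16, and it was lower in nilotinib line 1 by -0.44 ± 0.09. Of 20 measured transcription factors of the KIT gene or of progenitors that carry it, 2 of 20 passed in all resistant lines against naive cells, and both were higher, as were 3.21% of all genes. They were GFI1B (1.04 ± 0.14, adjusted p = 0.0335 by limma) and TAL1 (1.12 ± 0.19, adjusted p = 0.0380), which act with GATA1 in red cell and platelet precursors. The median of the list was 0.11, against -0.03 for all genes. None of the 20 passed against naive cells in any resistance taken alone, where 0% (low imatinib), 0% (high imatinib) and 0.443% (nilotinib) of all genes passed. Between the high-imatinib lines 8 were higher in line 1 and 4 lower, where 13.2% of all genes were higher and 19.8% lower. Between the nilotinib lines 4 were higher in line 1 and 7 lower (16.1% and 11.5% of all genes), and between the low-imatinib lines 4 and 4 (9.96% and 8.77%). MYB, a factor of progenitor cells, was at 9.09 and 8.87 for naive cells, 7.82 and 7.74 for low imatinib, 8.59 and 7.09 for high imatinib, and 9.15 and 9.10 for nilotinib. MYB was higher in high-imatinib line 1 by 1.51 ± 0.10, as KIT was, but differed by 0.05 ± 0.10 between the nilotinib lines, where KIT differed most. GATA2, which is active in progenitors and mast cells, was at 7.87 and 7.72 in naive cells and lowest in the low-imatinib lines (7.04 and 7.09) and high-imatinib line 2 (7.20). GATA2 was higher in line 1 in both pairs in which KIT was, by 0.65 ± 0.12 (high imatinib) and 0.37 ± 0.12 (nilotinib). MEIS1, a homeobox factor, was higher in high-imatinib line 1 by 1.01 ± 0.10 and lower in nilotinib line 1 by -0.85 ± 0.10. SPI1 (PU.1), the myeloid factor, ran from 6.18 to 8.02 and was highest in nilotinib line 2, where the KIT mean was lowest.

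Upstream of the receptors, KITLG, which encodes the ligand of KIT, read between 4.64 and 5.09. These means lay below the array medians (5.85 to 6.11), and whether KITLG reads above background was not tested. KITLG was higher in nilotinib line 1 by 0.38 ± 0.14 (adjusted p = 0.0444 by limma). CSF1, a ligand of CSF1R, was between 7.19 and 7.63, and higher in line 1 of the high-imatinib (0.31 ± 0.10) and nilotinib pairs (0.42 ± 0.10). Of the 9 measured ligands and receptors of the KIT family, 1 passed in all resistant lines against naive cells, where 3.72% of all genes passed. PDGFA, a growth factor for the receptors of the same family, was higher by 0.68 ± 0.13 (adjusted p = 0.0457 by limma). PDGFA was at 5.95 and 6.02 for naive cells, 6.48 and 6.83 for low imatinib, 7.26 and 7.03 for high imatinib, and 6.17 and 6.17 for nilotinib. PDGFC was lower in nilotinib line 1 (-0.96 ± 0.11) and in low-imatinib line 1 (-0.93 ± 0.11). FLT3LG was lower in high-imatinib line 1 (-0.57 ± 0.10) and higher in nilotinib line 1 (0.51 ± 0.10). FLT3, its receptor, ran from 5.07 to 5.45, also below the array medians. The median of the list in all resistant lines was -0.13.

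Downstream of KIT, 18 of 37 listed signalling partners were measured. Of these, 0 passed against naive cells in low imatinib, high imatinib, nilotinib or all resistant lines together. Over all genes 0%, 0%, 0.443% and 3.72% passed in the same order. Between lines, 7 of 18 were higher and 2 lower in high-imatinib line 1, where 13.2% of all genes were higher and 19.8% lower. In nilotinib line 1, 5 were higher and 4 lower (16.1% and 11.5% of all genes), and in low-imatinib line 1, 2 were higher and 4 lower (9.96% and 8.77%). VAV1, an exchange factor for RAC, was at 9.10 in high-imatinib line 1 and 6.11 in line 2, and at 6.95 in nilotinib line 1 and 8.42 in line 2. VAV1 and STAT5A (1.93 ± 0.15) were both higher in high-imatinib line 1, with KIT. In nilotinib line 1 VAV1 (-1.48 ± 0.19) and STAT5A (-1.89 ± 0.15) were both lower, against KIT. SOCS1, an inhibitor of JAK kinases that STAT factors induce, was higher in nilotinib line 1 by 2.98 ± 0.15. GAB2 was higher in line 1 of both pairs, by 0.54 ± 0.17 and 2.20 ± 0.17, although GAB2 is also among the genes picked for their likeness to KIT. GAB1, its relative, was lower in high-imatinib line 1 by -2.78 ± 0.14, at 4.94 against 7.72. SOS1, the exchange factor for RAS, was higher in nilotinib line 1 by 1.24 ± 0.09.

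ABL2 varied less than KIT, and its brighter feature (feature 1) was highest in high-imatinib line 1. That line read 8.45, 8.45, 8.39 and 8.52, and all 4 lay above every other array of the study. High-imatinib line 2 read 7.59, 7.48, 7.53 and 7.61. The line 1 mean of 8.45 ± 0.05 (SD) was 2.07-fold over the naive mean. Naive S gave 7.20, 7.49, 7.36 and 7.39, and naive K gave 7.16, 7.50, 7.58 and 7.58. Low-imatinib line 1 gave 7.41, 7.44, 7.31 and 6.86, and line 2 gave 7.77, 7.67, 7.61 and 7.61. Nilotinib line 1 gave 7.62, 7.74, 7.48 and 7.54, and line 2 gave 7.72, 7.92, 8.11 and 7.73. Apart from high-imatinib line 1, neighbouring sets in the order of ABL2 means overlapped. The range of the means was 1.20, or 2.30-fold, and 14.5% of genes ranged wider. High-imatinib line 1 exceeded line 2 by 0.90 ± 0.11 (adjusted p = 5.94e-08 by limma). Low-imatinib line 1 was under line 2 by -0.41 ± 0.11 (adjusted p = 0.00904), with 1 array of line 1 at 6.86. Without array 4 of every set that difference was -0.30 (adjusted p = 0.101), and with both features averaged it was -0.17 (adjusted p = 0.268). The nilotinib lines differed by -0.27 ± 0.11 (adjusted p = 0.0686), and passed under quantile normalization (-0.36, adjusted p = 0.00250) and with the technical axis taken out (-0.39, adjusted p = 3.54e-05). The second ABL2 feature varied less, with means between 5.94 and 6.31, and passed between no lines. It differed by 0.11 ± 0.14 between the high-imatinib lines (adjusted p = 0.657) and by -0.18 ± 0.14 between the nilotinib lines (adjusted p = 0.449), the direction of feature 1, and by 0.07 ± 0.14 between the low-imatinib lines, the other direction. The rise in high-imatinib line 1 therefore rests on 1 of 2 features. The second feature lay near the array medians (5.85 to 6.11), and whether it could show such a rise was not tested.

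Against naive cells ABL2 did not pass the test. The differences were 0.05 ± 0.30 for low imatinib (adjusted p = 0.931 by limma), 0.60 ± 0.30 for high imatinib (adjusted p = 0.388), 0.33 ± 0.30 for nilotinib (adjusted p = 0.451) and 0.32 ± 0.24 for all resistant lines (adjusted p = 0.382). High imatinib passed in the fit with the random block (adjusted p = 0.0429), which assumes 1 correlation within sets for all genes. The difference was 0.14 without line 1 and 1.05 without line 2. Feature 1 of ABL2 loaded on the technical axis more than 90.3% of genes did. With that axis taken out, the low-imatinib, nilotinib and all-line differences were -0.32, -0.19 and -0.07. The direction of ABL2 against naive cells thus depends on the treatment of the arrays outside the high-imatinib lines.

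Of 15 measured partners of the ABL kinases, 0 passed against naive cells in low imatinib, high imatinib, nilotinib or all resistant lines. Over all genes 0%, 0%, 0.443% and 3.72% passed in the same order. Between the high-imatinib lines 4 were higher and 5 lower in line 1, where 33% of all genes passed in either direction. Between the nilotinib lines 3 were higher and 3 lower (27.6% of all genes passed), and between the low-imatinib lines 1 was higher and 4 lower (18.7%). PXN (paxillin), an adaptor of focal adhesions, was at 8.84 in high-imatinib line 1 and 6.44 in line 2, a difference of 2.40 ± 0.10 in the direction of ABL2. ENAH, which lengthens actin filaments, was at 6.21 in high-imatinib line 1 and 7.82 in line 2. CAT (catalase) was at 8.03 and 9.41 in the same lines. BCR, the partner of ABL in the fusion kinase, differed by 0.29 ± 0.29 in all resistant lines against naive cells (adjusted p = 0.506 by limma) and was higher in nilotinib line 1 by 1.18 ± 0.10. CRKL, a main substrate of the fusion kinase, was lower in line 1 of the low-imatinib (-0.53 ± 0.08), high-imatinib (-0.48 ± 0.08) and nilotinib pairs (-0.78 ± 0.08).

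CSF1R was near the same level in every set, and no resistance passed the test against naive cells. Its set means (5.85 to 6.33) lay near the array medians (5.85 to 6.11). Whether its feature reads above background was not tested, so a level reading is no evidence of stable expression. Naive S read 6.05, 5.00, 6.19 and 6.17, and naive K read 6.46, 6.11, 6.22 and 6.55. The array at 5.00 was the lowest of the 32, and the median of the other 3 arrays of naive S was 6.17. The resistant lines lay between 5.86 and 6.35 in all 24 arrays. The differences from naive cells were 0.03 ± 0.19 (low imatinib, adjusted p = 0.942 by limma), 0.05 ± 0.19 (high imatinib, adjusted p = 0.910) and 0.03 ± 0.19 (nilotinib, adjusted p = 0.909). The 95% interval for all resistant lines was -0.33 to 0.40. Naive S was below naive K by -0.48 ± 0.16 (adjusted p = 0.0459), where 12.4% of genes passed. The arrays of these sets overlapped, and without array 2, which holds the low value, the difference was -0.28 (adjusted p = 0.215). Leaving out array 1 or array 4 also ended the call (adjusted p = 0.134 and 0.0951). CSF1R belongs to the monocyte markers, yet it differed by 0.07 ± 0.16 between the high-imatinib lines (adjusted p = 0.798), where 6 of the other 12 differed.

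DDR1 varied least of the 5. Its brightest feature had set means from 7.43 in high-imatinib line 1 to 7.71 in low-imatinib line 2, and 96.9% of genes ranged wider than its 0.28. In naive S the arrays read 7.56, 7.43, 7.56 and 7.56, and in naive K 7.46, 7.64, 7.64 and 7.45. High-imatinib line 1 gave 7.44, 7.41, 7.34 and 7.53, and low-imatinib line 2 gave 7.79, 7.85, 7.66 and 7.54. These sets form the ends of the order, and the highest array of the one (7.53) and the lowest of the other (7.54) were almost level. No comparison of DDR1 passed. The differences from naive cells were 0.10 ± 0.12 (low imatinib, adjusted p = 0.624 by limma), -0.07 ± 0.12 (high imatinib, adjusted p = 0.791) and 0.13 ± 0.12 (nilotinib, adjusted p = 0.462). Under quantile normalization the low-imatinib and nilotinib differences turned to -0.20 and -0.27, and with arrays shifted to 1 median the high-imatinib difference turned to 0.02. The other DDR1 features ranged by 0.24 and 0.25, with high-imatinib line 1 lowest in each. The collagens that activate DDR1 and DDR2 are not analysed here.

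DDR2 was lowest in nilotinib line 1. Its set means (5.77 to 6.30) also lay near the array medians (5.85 to 6.11), and a reading above background was not tested. That line read 5.83, 5.74, 5.53 and 5.98, and nilotinib line 2 read 6.07, 6.12, 6.30 and 6.33, without overlap. Line 1 was lower by -0.44 ± 0.13 (95% CI -0.71 to -0.17, adjusted p = 0.0120 by limma), the opposite direction to KIT. The call was lost without array 3 of every set (-0.33, adjusted p = 0.130) and under quantile normalization (-0.37, adjusted p = 0.0605). The remaining sets had means between 6.09 and 6.30, and all neighbouring sets in the order of DDR2 overlapped. Naive S gave 5.87, 6.61, 5.97 and 6.05, and naive K gave 6.18, 5.89, 6.06 and 6.21, a spread that covers most of the resistant arrays. Against naive cells DDR2 differed by 0.04 ± 0.16 (low imatinib, adjusted p = 0.897), 0.18 ± 0.16 (high imatinib, adjusted p = 0.616) and -0.12 ± 0.16 (nilotinib, adjusted p = 0.615).

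**Figure D4:**
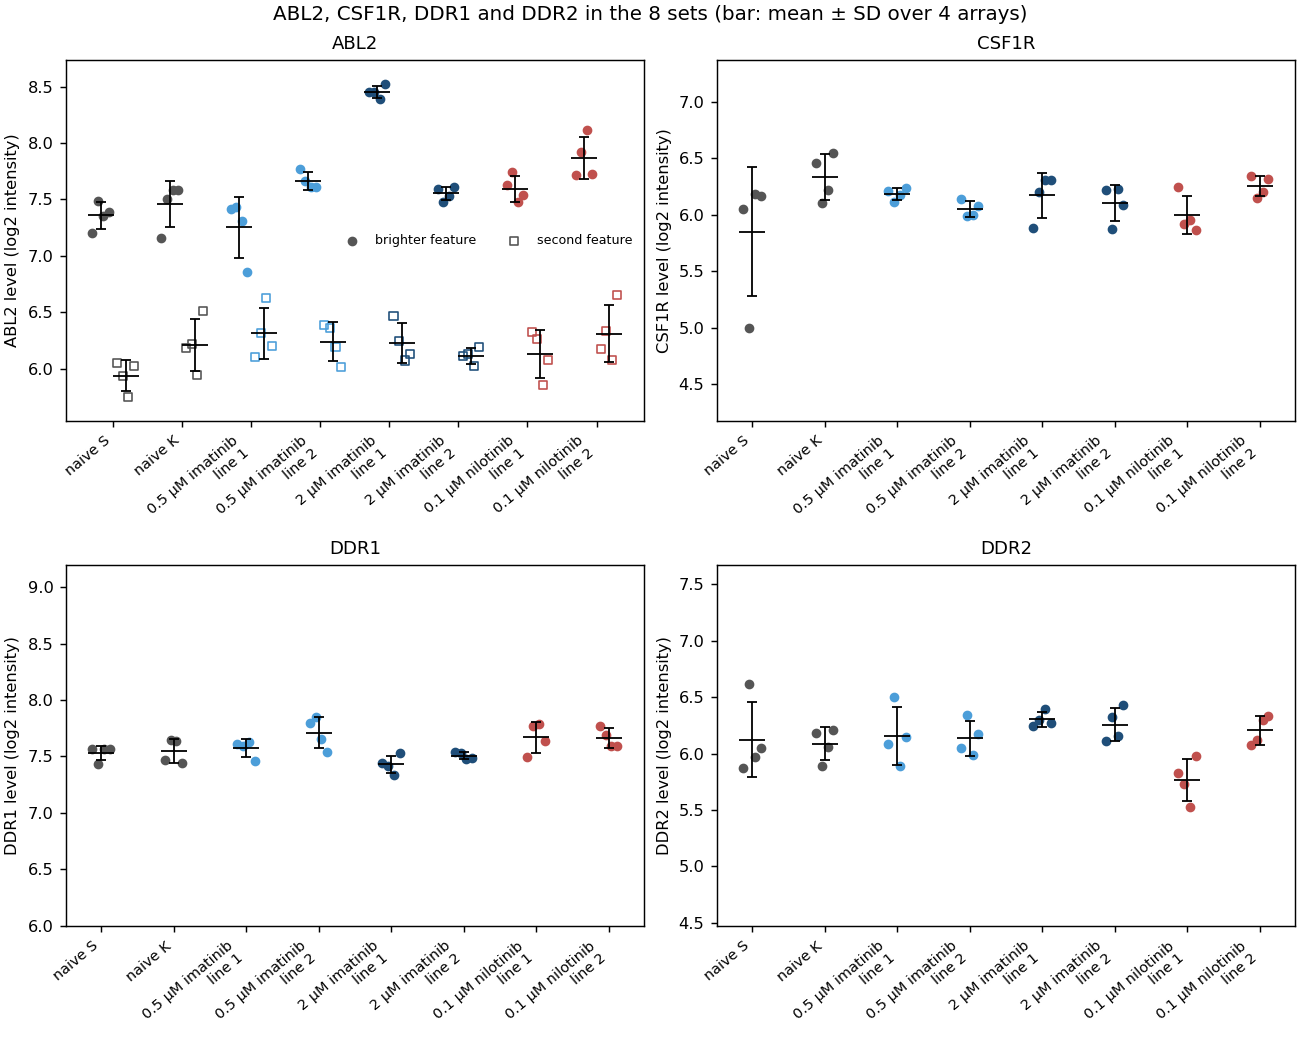
Levels of ABL2, CSF1R, DDR1 and DDR2 (log2 intensity, vertical axes of equal length) in the 8 sets, with 1 point per array and bars of mean ± SD over 4 arrays. The brighter ABL2 feature is raised in high-imatinib line 1 and the second is not, CSF1R has 1 low array in naive S, DDR1 is nearly level, and DDR2 is lowest in nilotinib line 1.

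Across the 5 genes, 0 of 5 passed against naive cells in any resistance, where 0%, 0% and 0.443% of all genes passed. In the low-imatinib lines KIT lay below both naive sets and DDR1 and DDR2 above, where 31% of genes lay below and 31% above. In the high-imatinib lines KIT and DDR1 lay below (25.9% of genes) and ABL2 and DDR2 above (24.3%). In the nilotinib lines ABL2 and DDR1 lay above (32.7%), and none lay below (34.7%). None of the 5 had all 6 resistant lines on 1 side of the naive sets, which 17% of genes had above and 15.9% below. Between lines, 2 of 5 passed for high imatinib (KIT and ABL2, both higher in line 1), 2 of 5 for nilotinib (KIT higher, DDR2 lower) and 1 of 5 for low imatinib (ABL2 lower), beside backgrounds of 33%, 27.6% and 18.7%. The arrays of lines 1 and 2 did not overlap for KIT and ABL2 in high imatinib (37% of genes), KIT and DDR2 in nilotinib (29.1%) and ABL2 in low imatinib (22.1%). Between naive S and naive K only CSF1R of the 5 passed (12.4%), and all 5 overlapped (10.6% of genes did not).

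Of 21 other measured proteins reported to bind either drug, 0 passed against naive cells in low imatinib, high imatinib, nilotinib or all resistant lines. Over all genes 0%, 0%, 0.443% and 3.72% passed in the same order. In all resistant lines the list median was -0.08. Between lines, 3 were higher and 3 lower in high-imatinib line 1, where 33% of all genes passed in either direction. In nilotinib line 1, 3 were higher and 2 lower (27.6%), and in low-imatinib line 1, 4 were higher and 1 lower (18.7%). These shares lie near the background. SYK, a kinase of immune receptors, was at 7.89 and 6.34 in high-imatinib lines 1 and 2 and at 5.97 and 7.91 in nilotinib lines 1 and 2. SYK was therefore higher in high-imatinib line 1 with KIT and lower in nilotinib line 1 against it. EPHB4, an ephrin receptor, was highest in nilotinib line 1 at 9.38, by 1.37 ± 0.12 over line 2. CA2, carbonic anhydrase, was at 5.32 and 5.75 for naive cells, 7.55 and 6.84 for low imatinib, 5.43 and 7.71 for high imatinib, and 6.15 and 6.16 for nilotinib. LYN, a kinase of the SRC family, was higher in nilotinib line 1 by 0.78 ± 0.11.

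Some of the genes next to KIT on chromosome 4 also differed between the nilotinib lines. Of the 5 nearest measured genes on each side, 5 of 10 were higher in nilotinib line 1 and 0 were lower, where 16.1% of genes were higher. They were CLOCK (1.35), TMEM165 (0.90), CHIC2 (0.70), PDCL2 (0.69) and RPL21P44 (0.48). The set means of PDCL2 (4.26 to 5.34) and RPL21P44 (4.71 to 5.31) lay below the array medians (5.85 to 6.11). Whether these genes read above background was not tested. KDR, the nearest measured gene on 1 side, differed by 0.21 and GSX2 on the other side by -0.15, and neither passed. Between the high-imatinib lines 1 of 10 was higher, CHIC2 by 0.62, and 0 were lower, and between the low-imatinib lines, where KIT differed by 0.09, 2 were higher and 0 lower. The set means of the 10 genes ranged by 0.38 to 1.35, against 4.19 for KIT. Around DDR2 on chromosome 1, 5 of 10 genes were lower in nilotinib line 1 and 0 were higher, where 11.5% of genes were lower. SH2D1B (-2.07), UAP1 (-1.30) and UHMK1 (-0.94) moved by more than DDR2 itself, and C1orf226 (-0.58) and LRRC52 (-0.43) by a like amount. LRRC52 also had set means below the array medians, from 4.71 to 5.45. Around ABL2, 0 of 10 genes were higher in high-imatinib line 1 and 1 was lower, where 13.2% of genes were higher and 19.8% lower. In low-imatinib line 1, where ABL2 itself was lower, 5 of its 10 neighbours were lower and 1 higher (8.77% of genes lower, 9.96% higher). In nilotinib line 1, 3 were lower and 0 higher. Around DDR1, IER3 (2.07) and FLOT1 (1.09) were higher and MIR4640 (-0.53) lower in high-imatinib line 1, where DDR1 differed by -0.08. In the low-imatinib and nilotinib pairs 3 and 3 of the 10 were lower in line 1 and none was higher. Around CSF1R, 4 of 10 genes were lower and 1 higher in naive S than in naive K, the pair in which CSF1R passed, where 5.9% of genes were lower and 6.46% higher.

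**Figure D5:**
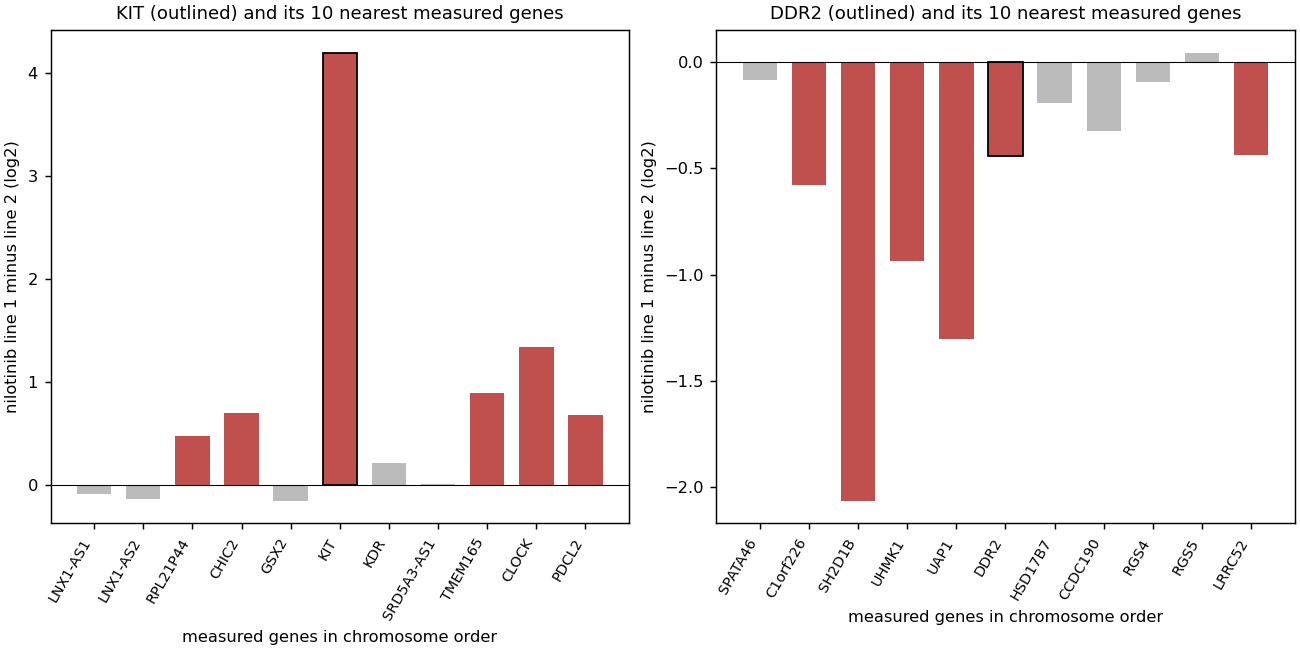
Nilotinib line 1 minus line 2 (log2, vertical axes that differ in scale) for KIT on the left and DDR2 on the right, each outlined, with the 10 nearest measured genes in chromosome order. Red bars passed at an adjusted p under 0.05 in limma and grey bars did not, and 5 of 10 neighbours passed in each panel.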

How the data were processed

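Whole-transcript arrays were run on 8 sets of 4 RNA samples of K-562. The deposited values are log2 intensities per array feature, summarised by the authors with Transcriptome Analysis Console 4.0, per the submitters' processing notes. No source used here gives how arrays were normalized, and a base of 2 was read from the range of the values (1.24 to 14.2, array medians 5.85 to 6.11). Each group has 2 lines or naive sets, and that number limits the precision of comparisons between groups. All 16098 features with 1 symbol matched a gene name of the GRCh38.p14 annotation, and the feature with the highest mean stood for each of 14884 genes. Arrays of a set correlated at r = 0.952 to 0.991.

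Python 3.11.15 was used for levels and sequences. Fits used limma 3.58.1 (R 4.3.3), on the 8 set means for comparisons between groups and on the 32 arrays for sets of the same group, and were checked on simulated data, with Benjamini-Hochberg adjustment over all genes and a threshold of 0.05. Errors marked SE and intervals come from limma. Alternatives changed the normalization, the filter on dim genes, the features, the groups fitted, the spread estimate, the block and the samples. The members and lists were chosen with earlier results of these data known. Named by rule were the 5 kinase genes, the 5 genes most alike KIT, 5 measured neighbours on each side, and from each list the 3 genes with the widest range and the passing genes (or 3 of them by adjusted p). KITLG and FLT3 were named after their values were seen, and some passing list genes are given as counts. Lists and measured members were KIT family ligands and receptors (9 of 11), KIT signalling partners (18 of 37), transcription factors of KIT (20 of 21), ABL partners (15 of 25), other bound proteins (21 of 30), collagens (0 of 18), and markers of mast cells, monocytes, erythroid cells, megakaryocytes, lymphoid cells, and fibroblasts and epithelia.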

Additional observations from a re-analysis of the deposited data

Results flagged for a closer look

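Of 64 sets of 4 arrays looked at over the 8 distinct features of KIT, ABL2, CSF1R, DDR1 and DDR2, 3 held an array far from the other 3 of its set, where chance gives about 1 in 20. CSF1R in naive S had 1 array at 5.00 (log2) with the other 3 around 6.17, a gap of 0.889 of the set's whole range. The brightest DDR1 feature in naive S had 1 array at 7.43 with the other 3 at 7.56, a gap of 0.995 of a range that is small in itself. Feature 4 of DDR1 in low-imatinib line 1 had 1 array at 7.35 with the others around 7.50, a gap of 0.867 of the range. Only the CSF1R array bears on a call, that between naive S and naive K.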

How the results depend on the processing

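KIT kept its direction under every rescaling, feature choice and spread estimate in all 11 comparisons. It passed against naive cells for low imatinib with only those groups fitted (-3.10) or with 32 arrays and the set as a random block (-3.10), and under that block for high imatinib (-2.19) and all resistant lines (-2.27). ABL2 passed under the block for high imatinib (0.60). The block assumes 1 correlation within sets for all genes, so it can understate the spread between lines for KIT and ABL2.

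Under quantile normalization ABL2 turned to -0.23 (low imatinib minus naive) and -0.057 (nilotinib minus naive), and DDR1 to -0.20, -0.27 and -0.27 (low imatinib, nilotinib and all resistant minus naive), -0.073 (nilotinib minus low) and -0.097 (nilotinib lines). DDR2 turned to 0.0052 (nilotinib minus naive) and -0.026 (low lines), and CSF1R to 0.042 (nilotinib minus high). ABL2 (-0.36, nilotinib lines) and KIT (-0.50, naive S minus K) passed, and DDR2 (-0.37, nilotinib lines) no longer did. With arrays shifted to 1 median, DDR1 turned to 0.022 (high minus naive), DDR2 to 0.046 (nilotinib minus naive) and CSF1R to 0.059 (nilotinib minus high), and CSF1R at -0.47 (naive S minus K) was lost. That shift moved the median gene in nilotinib minus naive from -0.03 to 0.14. With the technical axis taken out, ABL2 turned to -0.32, -0.19 and -0.070 (low, nilotinib and all resistant minus naive), DDR1 to -0.027 (all resistant), -0.0051 (nilotinib minus low) and -0.015 (nilotinib lines), and CSF1R to -0.0052 (high minus low) and 0.062 (nilotinib minus high). ABL2 passed between nilotinib lines (-0.39). With features averaged, ABL2 (-0.17) was lost between the low lines. The cause of these changes was not tested.

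Leaving out 1 set at a time gave these lowest and highest values. KIT ran from -3.61 to 0.59 (nilotinib minus naive), -0.18 to 1.99 (high minus low), -0.51 to 3.69 (nilotinib minus low) and -1.41 to 2.78 (nilotinib minus high). ABL2 ran from -0.15 to 0.26 (low minus naive) and -0.72 to 0.18 (nilotinib minus high). CSF1R ran from -0.22 to 0.27, -0.19 to 0.29, -0.21 to 0.28 and -0.21 to 0.28 (low, high, nilotinib and all resistant minus naive), -0.045 to 0.087 (high minus low), -0.12 to 0.14 (nilotinib minus low) and -0.14 to 0.12 (nilotinib minus high). DDR1 ran from -0.045 to 0.092 (nilotinib minus low). DDR2 ran from -0.34 to 0.10 (nilotinib minus naive), -0.041 to 0.11 (all resistant) and -0.38 to 0.061 (nilotinib minus low). Leaving out 1 array number at a time gave KIT -0.040 to 0.23 (low lines) and -0.67 to -0.29 (naive S minus K), ABL2 -0.47 to -0.30 (low lines), CSF1R -0.013 to 0.21 (high lines) and -0.63 to -0.28 (naive S minus K), DDR1 -0.054 to 0.10 (nilotinib lines) and -0.061 to 0.048 (naive S minus K), and DDR2 -0.029 to 0.057 (low lines), -0.017 to 0.11 (high lines), -0.50 to -0.33 (nilotinib lines) and -0.19 to 0.16 (naive S minus K). Where a set is left out, the lone set of its group is assumed to vary like the others. An alternative chosen after its value was seen left out the lowest CSF1R array of naive S. The median of that set was then 6.17, against a median of 6.11 over all 4 arrays.

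With the line number as a replicate block, KIT differed by 0.90 (high minus low), 1.59 (nilotinib minus low) and 0.68 (nilotinib minus high), and 0 genes passed in each, as without it. Same-numbered lines correlated in their deviations at 0.14, 0.19 and -0.20. No value for lines known to be paired is at hand, so these correlations cannot tell whether the numbers pair the lines.

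Counts of genes moved widely: low minus naive from 0 to 172 (1 median), 4 (dim genes left out), 1990 (only those groups), 2672 (random block) and up to 705 without 1 set. High minus naive went from 0 to 1 (quantile, and only those groups), 2 (trend and robust), 1679 (random block) and up to 125 without 1 set. Nilotinib minus naive went from 66 to 1 (quantile), 1615 (1 median), 99 (dim genes left out), 0 (axis, every feature, only those groups), 2 (trend and robust), 3696 (random block) and 0 to 1187 without 1 set. All resistant minus naive went from 553 (478 higher, 75 lower) to 362 (179 higher, 183 lower, quantile), 1677 (1 median), 12 (3 higher, 9 lower, axis), 16 (every feature), 268 (trend and robust), 3660 (random block) and 0 to 1742 without 1 set. Between resistances, every feature gave 2 (nilotinib minus low) and 1 (nilotinib minus high), and leaving out a set gave up to 270, 28 and 35. Naive S minus K went from 1840 to 2990 (quantile), 2871 (axis) and 582 to 1597 without 1 array.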

Other observations

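Marker lists of other lineages were also followed. Of 13 megakaryocyte genes, 1 passed in all resistant lines against naive cells, GFI1B, which was higher, as were 3.21% of all genes. THBS1 (thrombospondin 1), which platelets store, was at 6.63 and 6.66 for naive cells, 8.17 and 8.22 for low imatinib, 6.84 and 7.64 for high imatinib, and 9.50 and 7.80 for nilotinib. THBS1 was thus highest in nilotinib line 1, as KIT was, while high-imatinib line 1 lay near the naive level. GP6, the collagen receptor of platelets, was at 6.07 and 6.13 for naive cells and between 6.46 and 7.91 in the 6 resistant lines. F2RL3, a thrombin receptor, was at 7.07 and 5.80 in the high-imatinib lines and at 7.31 and 6.68 in the nilotinib lines. Between the high-imatinib lines 2 of the 13 genes were higher in line 1 and 3 lower, near the 33% of all genes that passed in either direction. Between the nilotinib lines 3 were higher and 3 lower (27.6% of all genes passed), and between the low-imatinib lines 1 and 1 (18.7%).

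Of 12 lymphoid genes, 0 passed between the lines of any resistance. Over all genes 18.7% (low imatinib), 33% (high imatinib) and 27.6% (nilotinib) passed between lines. CD2 was lower in naive S than in naive K, where 12.4% of all genes passed in either direction. The widest range in the lymphoid list was 0.73, for CD2, from 6.13 to 6.86. PAX5 ranged by 0.68 and NKG7 by 0.51. Of 13 fibroblast and epithelial genes, EPCAM, an epithelial adhesion molecule that erythroid precursors can also carry, ranged most. EPCAM was at 8.40 and 8.56 for naive cells, 9.26 and 8.25 for low imatinib, 5.86 and 7.87 for high imatinib, and 5.97 and 8.59 for nilotinib. EPCAM was therefore low in the 2 resistant lines that had the highest KIT, but not in naive cells. KRT19 was at 6.33 in nilotinib line 1 and 7.81 in line 2, and THY1 ranged by 0.69.

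Between the naive sets, the lists behind and upstream of KIT differed in a few genes beyond technical spread, where 12.4% of all genes passed. SOCS1, SOS1 and GRB10 were higher in naive S, and PDGFB, CSF1, FLI1, GFI1B and GATA1 were lower in naive S than in naive K. Of the 15 ABL partners 0 differed between the naive sets.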
